A study of Mus musculus with 7 samples.

Results

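The *Glis3* gene contains 278 annotated repeat loci (LINE, SINE and LTR elements) out of the 3494995 loci in the deposited table, taken as every locus lying wholly between positions 28262448 and 28680077 of chromosome 19 (mm10). The gene is on the minus strand, and its deleted exon, exon 4, spans 28530873 to 28531986. A total of 120 loci lie upstream of this exon, on the side of the start site, and 158 lie downstream of it. The RNA came from whole testes of C57BL/6 background embryos at E14.5, with 1 pair of testes per library. Of the 7 libraries, 3 were labelled wild-type and 4 were labelled *Glis3* mutant, and the mutants were homozygous for the *Glis3* zf5 allele, a germline deletion of 3.5 kb that removes exon 4 with adjoining stretches of introns 3 and 4. No transgene, Cre or treatment was involved. The comparison asks whether the level of RNA from both sides of the deleted exon differed between the genotypes, and by how much on each side.

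Introns are transcribed together with exons and are then cut out of the pre-mRNA and degraded, so reads from an intron mostly come from unspliced or partly spliced RNA. Old, immobile copies of transposable elements are scattered through most introns, and a uniquely mapped read on such a copy can come from the transcript of the host gene rather than from the element itself. RNA polymerase meets the upstream introns before, and the downstream introns after, the position of the deleted exon. *Glis3* encodes a zinc finger transcription factor of the GLI-similar family, related to the GLI and ZIC proteins, with roles in the pancreas, thyroid and kidney as well as the germline. The libraries were suited to intronic reads, since ribosomal RNA was removed, no step selected poly-A tails, and first strands were made from random primers. They did not keep strand, so a read cannot be given to one strand or the other.

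The sequences that frame the comparison are the borders of the deleted exon, read from the *Glis3*-209 transcript of GENCODE M21 on GRCm38 (the mm10 assembly). They are shown because the split of the loci is set by them. In the first line the capitals are the first 90 bases of exon 4 (chr19:28531897-28531986, minus strand) after the last 30 bases of exon 3. In the second line the capitals are the last 90 bases of exon 4 (chr19:28530873-28530962, minus strand) before the first 30 bases of exon 5.
exon 3 to exon 4: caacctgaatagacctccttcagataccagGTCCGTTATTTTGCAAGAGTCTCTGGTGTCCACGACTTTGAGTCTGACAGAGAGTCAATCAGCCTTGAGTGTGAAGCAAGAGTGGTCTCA
exon 4 to exon 5: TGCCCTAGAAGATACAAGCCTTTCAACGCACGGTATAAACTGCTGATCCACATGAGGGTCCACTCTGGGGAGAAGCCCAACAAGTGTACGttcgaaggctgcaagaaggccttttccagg

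Among the named loci, an LTR element of the ORR1F family in intron 2 lies within an annotated transcript (4933413C19Rik, a sense-intronic RNA), so its own sequence could be read. It is shown as an example of the sequence of a counted locus. Its reads cannot be told apart from reads of that RNA. The capitals are the first 240 bases of the element (chr19:28581604-28581843, plus strand, against the direction of *Glis3*, with the element running on to 28581981), after 30 flanking bases.
ORR1F: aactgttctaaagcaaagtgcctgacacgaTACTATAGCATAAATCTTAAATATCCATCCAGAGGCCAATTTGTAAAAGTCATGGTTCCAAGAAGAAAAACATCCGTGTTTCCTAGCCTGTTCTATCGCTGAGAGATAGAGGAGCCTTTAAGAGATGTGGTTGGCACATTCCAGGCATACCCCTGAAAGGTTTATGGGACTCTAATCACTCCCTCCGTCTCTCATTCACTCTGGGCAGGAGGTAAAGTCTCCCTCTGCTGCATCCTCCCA

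The loci are 88 LINE, 115 SINE and 75 LTR elements of 106 names. Their lengths ran from 11 to 1476 bases with a median of 163, and together they cover 63.3 kb, or 15.1% of the 418 kb gene. Of the 278 loci, 108 are annotated in the direction of *Glis3* transcription and 170 against it. No locus overlaps an exon of *Glis3*-209, so the members are intronic with respect to this transcript. The 278 loci held 3099 reads in all. Reads were present in at least 1 library at 240 loci and in none at 38.

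Total counts over all loci of the genome were between 3454317 and 4670830 reads per library. Effective library sizes (the total adjusted by TMM normalization) were between 3407850 and 5238840, so that 1 read was worth 0.191 to 0.293 CPM (counts per 1000000 reads of effective library size). One MMVL30-int locus on chromosome 14 took from 0.072% to 7.02% of a library's reads and so moved the totals, which TMM normalization was used to offset. Wild-type replicate 3, as labelled, had a *Glis3* FPKM at the mutant level, and the tests are therefore also given without it. This library was picked by its *Glis3* level and had the fewest *Glis3* repeat reads of the wild-type libraries. Smaller p-values without it thus follow in part from that choice and are not separate support. Germ cell markers (8 genes, among them *Ddx4* and *Dazl*) summed to 623 to 1053 FPKM in the wild-type libraries and to 443 to 547 FPKM in the mutant libraries. The sums were 245 to 375 and 308 to 397 FPKM for Sertoli cell markers, 1476 to 2495 and 2341 to 2880 for fetal Leydig cell markers, 288 to 312 and 288 to 373 for interstitial markers, 52.3 to 66.5 and 57.8 to 60.3 for endothelial markers, and 786 to 3284 and 770 to 1886 for blood cell markers. All germ cell, Sertoli cell and fetal Leydig cell markers were above 1 FPKM in every library. Of markers of the adjoining mesonephros, *Pax2* was at or near 0 in every library. *Pax8* had 0.559 to 1.01 FPKM and *Emx2* had 5.86 to 8.56 FPKM, both with overlap between the genotypes. *Lhx1* had 1.23 to 2.41 FPKM in wild-type and 0.524 to 0.892 FPKM in mutant libraries, without overlap. Of the 12783 genes averaging 1 FPKM or more, 7.92% were lower in this way. The study also names *Lhx1* among genes of undifferentiated spermatogonia that were reduced in another *Glis3* mutant line. It is thus not a measure of mesonephros alone.

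Repeat reads within *Glis3* were fewer in every mutant library than in any wild-type library. Wild-type replicates 1, 2 and 3 had 922, 543 and 464 reads over the 278 loci. Mutant replicates 1 to 4 had 328, 293, 314 and 235 reads. Scaled to library size, the wild-type sums were 176, 146 and 107 CPM and the mutant sums were 86.6, 80.6, 92.1 and 62.7 CPM. The mean was 143 ± 34.5 CPM (SD, n = 3) in wild-type and 80.5 ± 12.8 CPM (SD, n = 4) in mutant testes, or 0.563 of the wild-type level. The groups did not overlap. Among the sums of repeat reads over all 12884 genes averaging 10 such reads or more, 3.17% were lower in every mutant library than in any wild-type library and 6.81% were higher in every mutant library.

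In the edgeR fit across these 12884 genes, the *Glis3* sum differed by -0.83 on the log2 scale (standard error 0.16, 95% interval from -1.17 to -0.49, unadjusted p = 0.000133). The median over all genes was 0.04. After adjustment over all genes the p-value was 0.0901, which did not pass the threshold of 0.05. *Glis3* had the 19th lowest p-value. Of the 6655 genes averaging 100 reads or more, 14 had a lower log2 fold change. Only 1 gene was called lower (0.00776% of the genes tested) and 0 were called higher by this fit, while 1524 genes (11.8%) had an unadjusted p under 0.05 and DESeq2 called 26 lower and 30 higher. Without wild-type replicate 3 the value was -1.005 (adjusted p = 0.00356), and leaving out wild-type replicate 1 gave -0.65 (adjusted p = 0.358). The summed germ cell markers moved in the same direction as the *Glis3* sums, and their part in the result was not tested. Of the 8 markers, 3 were lower in every mutant library than in any wild-type library. The study reports *Ddx4*, *Mael* and *Tdrd1*, which are in this list, as reduced in mutant testes. The list is thus not a measure of germ cell content alone. In RNA from whole testes, fewer cells of a type and less RNA per cell cannot be told apart. The study also counted germ cells in sections at E14.5 and reported no difference between the genotypes. Its discussion, however, places the first germ cell loss at this age. Those cell counts are not part of the data used here.

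Upstream of the deleted exon, the 120 loci had 315, 200 and 150 reads in wild-type replicates 1 to 3 and 115, 85, 99 and 85 in mutant replicates 1 to 4. In CPM these were 60.1, 53.8 and 34.6 against 30.4, 23.4, 29.1 and 22.7, and the groups did not overlap. The mean was 49.5 ± 13.3 CPM (SD, n = 3) in wild-type and 26.4 ± 3.90 CPM (SD, n = 4) in mutant testes, a ratio of 0.533. Downstream, the 158 loci had 607, 343 and 314 reads in wild-type and 213, 208, 215 and 150 reads in mutant libraries. In CPM these were 116, 92.3 and 72.5 against 56.2, 57.2, 63.1 and 40.0, again without overlap. The mean was 93.5 ± 21.7 CPM (SD, n = 3) in wild-type and 54.1 ± 9.88 CPM (SD, n = 4) in mutant testes, a ratio of 0.579. Wild-type replicate 3 was the lowest wild-type library and the closest to the mutants on both sides of the exon. These sums of a whole side were not tested on their own. Both are parts of the total above, and no share without overlap was computed for sides of other genes.

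**Figure D1:**
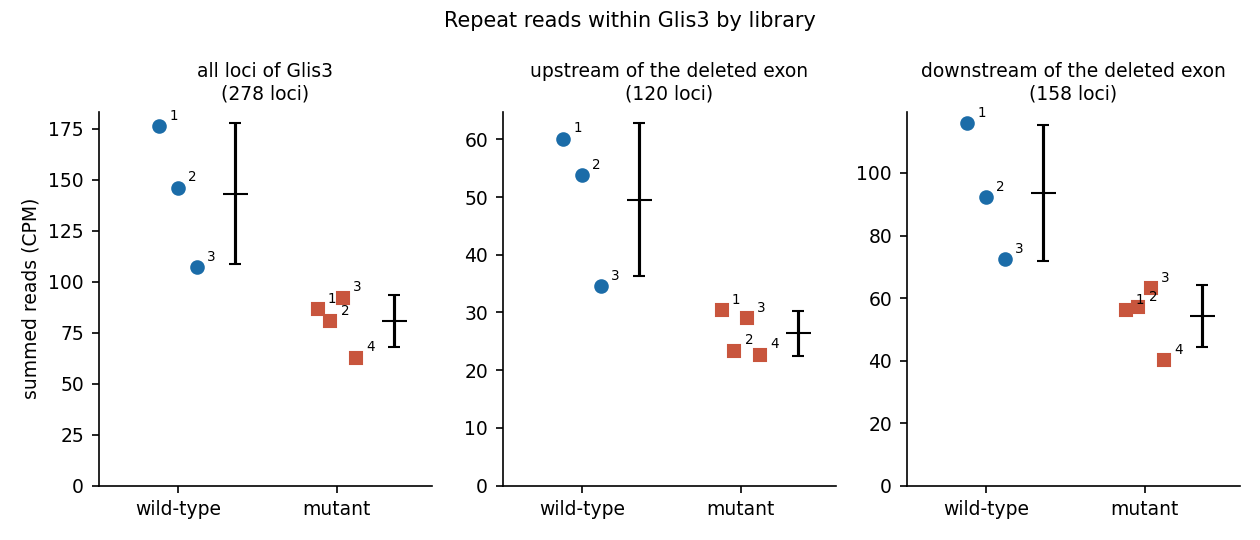
Summed repeat reads within *Glis3* in CPM (counts per 1000000 reads of effective library size) for all 278 loci, the 120 upstream of the deleted exon and the 158 downstream of it. Each point is a library (wild-type blue circles, mutant red squares, numbered by replicate) and the bars give the mean and SD. The 4 mutant libraries lie below the 3 wild-type libraries in each panel.

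The share of *Glis3* repeat reads that lay downstream of the exon was close in both genotypes. It was 65.8%, 63.2% and 67.7% in wild-type replicates 1 to 3 and 64.9%, 71.0%, 68.5% and 63.8% in mutant replicates 1 to 4. Exact 95% binomial intervals, which cover counting error only, reached from 62.7% to 68.9% in the deepest library (wild-type replicate 1) and from 57.3% to 70.0% in the library with the fewest reads (mutant replicate 4). The mean share was 65.6% ± 2.27 (SD, n = 3) in wild-type and 67.1% ± 3.28 (SD, n = 4) in mutant testes, and the groups overlapped.

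The difference between the sides was tested as an interaction, with every other gene split at the same share of its length (35.5% from the start site) and with the library as a block. For *Glis3*, the downstream to upstream ratio differed between mutant and wild-type by 0.10 on the log2 scale (standard error 0.15, 95% interval from -0.21 to 0.42, unadjusted p = 0.507, adjusted p = 0.881). The interval corresponds to a ratio between 0.864 and 1.34. Over the 8628 genes tested the median was 0.11, and 0 genes (0% in each direction) passed the threshold, while 765 (8.87%) had an unadjusted p under 0.05 and limma on the log2 ratios called 0 lower and 1 higher. A difference between the sides was thus not detectable in *Glis3*. The interval holds for this fit alone and for the distance from 0, not from the median over genes of 0.11. It was not computed for the alternatives, among which leaving out mutant replicate 2 gave 0.02 (standard error 0.16). A smaller ratio than 0.864 is therefore not excluded.

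By intron, only the pair of longest introns passed the test, one on each side of the deleted exon. Intron 2 (28540409 to 28665752, 125 kb, 107 loci) lies upstream and intron 4 (28357953 to 28530872, 173 kb, 111 loci) begins directly downstream of the exon. Intron 2 had 55.4, 47.9 and 31.9 CPM in wild-type replicates 1 to 3 and 27.7, 20.1, 26.4 and 21.6 CPM in mutant replicates 1 to 4. Intron 4 had 97.5, 80.4 and 61.6 CPM in wild-type and 48.6, 49.2, 54.0 and 33.4 CPM in mutant libraries. The groups did not overlap in either intron. Among the 59582 introns of all genes with a mean of at least 5 repeat reads, 3.27% were lower in every mutant library than in any wild-type library and 3.7% were higher.

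In the fit across all introns, intron 2 changed by -0.91 on the log2 scale (standard error 0.17, adjusted p = 0.0312) and intron 4 by -0.79 (standard error 0.15, adjusted p = 0.0463), with the 8th and 11th lowest p-values. They were 2 of 13 introns called lower in the genome (0.0218% of those tested, against 0.00504% called higher), and the median over all introns was 0.03. An unadjusted p under 0.05 was found for 7.33% of all introns and for introns 2, 4, 6 and 7 of *Glis3*. Both calls were lost, with adjusted p-values of 0.283 and 0.346, without wild-type replicate 1, and both were lost without wild-type replicate 2, mutant replicate 2 or mutant replicate 4. Without mutant replicate 1 only intron 2 was called. Without wild-type replicate 3 the log2 fold changes were -1.11 and -0.95 (adjusted p = 0.000175 and 0.00078).

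The other introns held few reads. Intron 1 (8 loci) had 9, 13 and 3 reads in wild-type and 5, 1, 4 and 3 in mutant libraries, with overlap between the groups. Intron 3 (5 loci), which ends at the deleted exon, had 16, 9 and 9 reads against 5, 11, 5 and 1, also with overlap. Their log2 fold changes were -1.07 (standard error 0.56) and -0.74 (standard error 0.47), and neither passed the test. Reads over a long antisense transcript, D930032P07Rik, which covers the start of *Glis3*, cannot be told apart from *Glis3* reads in intron 1. Far downstream, intron 6 (32 loci) had 65, 29 and 28 reads against 22, 19, 21 and 18, and intron 7 (6 loci) had 19, 9 and 11 reads against 3, 6, 6 and 5. In CPM the groups did not overlap in either of these, but with log2 fold changes of -0.71 (standard error 0.26) and -1.06 (standard error 0.42) the adjusted p-values were 0.527 and 0.582. Introns 8 and 9 (4 and 5 loci) had a mean of under 5 reads and were not tested. Intron 8 had 4, 2 and 4 reads against 1, 3, 2 and 1, and intron 9 had 8, 4 and 4 against 3, 1, 2 and 1. Introns 5 and 10 contain no locus. The mean was lower in mutant than in wild-type testes in all 8 introns with loci, with mutant to wild-type ratios between 0.409 (intron 9) and 0.655 (intron 8). Both of these ratios rest on few reads. Over all 59582 introns tested, 46.6% had a fitted log2 fold change below 0. The introns divide reads whose total did not overlap, so they are not separate results.

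**Figure D2:**
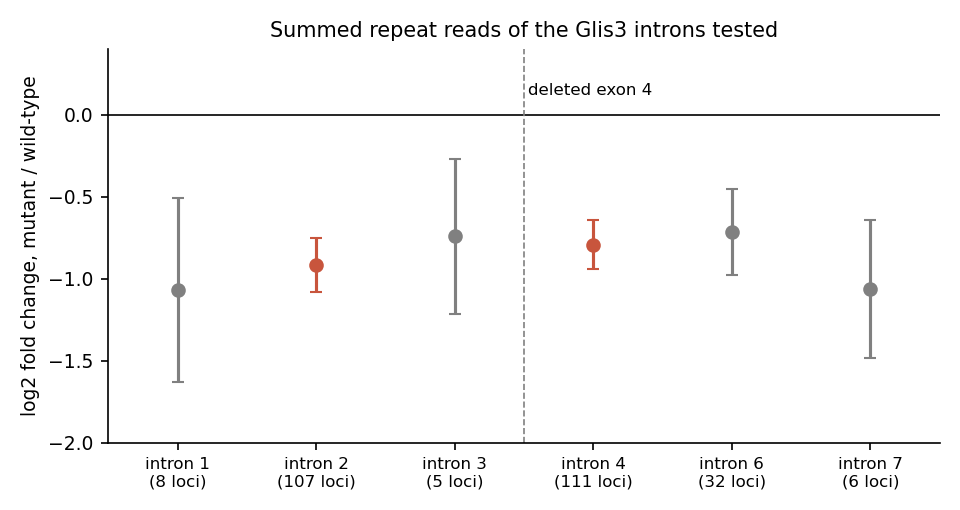
Log2 fold change (mutant over wild-type) of the summed repeat reads in the 6 *Glis3* introns tested, with standard errors, from the edgeR fit across 59582 introns. Red points passed an adjusted p of 0.05 (introns 2 and 4), grey points did not, and the dashed line marks the deleted exon. The values lie between -0.71 and -1.07 on both sides of the exon.

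Along the gene, the level of repeat reads was not even. In windows of 50 kb from the start site, wild-type testes had 2.10, 2.06 and 1.32 CPM per kb of repeat in the 3 windows before the exon. The window from 150 to 200 kb, directly after the exon, had 4.69 CPM per kb and was the highest. The windows after it had 2.69, 2.16, 2.34 and 1.14, and the last 3 loci of the gene, beyond 400 kb, had 0.592 CPM per kb. The mutant profile had the same highest and lowest windows, at 2.72 and 0.228 CPM per kb. Mutant to wild-type ratios were between 0.502 and 0.655 in the 8 windows up to 400 kb. The groups overlapped in 2 of the 9 windows, from 100 to 150 kb and from 300 to 350 kb. The windows divide reads whose total did not overlap, so they are not separate results. No share over windows of other genes was computed.

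**Figure D3:**
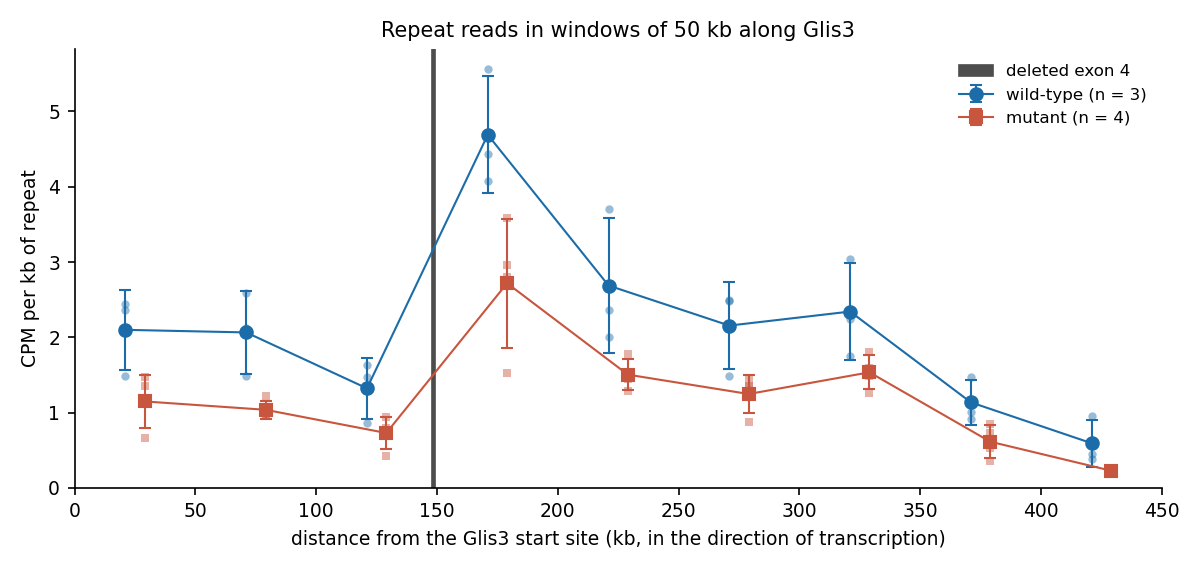
Repeat reads in CPM per kb of repeat in windows of 50 kb, against distance from the *Glis3* start site in kb. Small points are libraries, large points with bars are the mean and SD (wild-type blue circles, mutant red squares), and the grey line marks the deleted exon. Both genotypes peak in the window after the exon, where the means are 4.69 and 2.72.

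Split by kind of element, the reads were lower in each class. LINE loci had 64.3, 59.2 and 41.8 CPM in wild-type and 37.0, 36.3, 37.0 and 25.1 CPM in mutant libraries. SINE loci, short elements with a median length of 138 bases here, had 60.5, 43.8 and 36.0 against 25.6, 23.7, 28.5 and 18.7 CPM. LTR loci had 51.2, 43.0 and 29.3 against 24.0, 20.6, 26.7 and 18.95 CPM. The groups did not overlap in any class, and the mutant to wild-type ratios were 0.614, 0.515 and 0.548. The classes divide reads whose total did not overlap, so they are not separate results, and no share over other genes was computed. Loci in the direction of *Glis3* had 48.1 ± 14.5 CPM (SD, n = 3) in wild-type and 24.2 ± 5.77 CPM (SD, n = 4) in mutant testes, and loci against it had 94.9 ± 20.4 and 56.3 ± 7.26 CPM. Per kb of repeat, these were 2.19 and 2.30 CPM in wild-type and 1.10 and 1.37 CPM in mutant testes, so loci in either direction were covered to a similar level. No test was made of these differences between classes or directions.

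Single loci were shallow, and most could not be tested with precision. A mean of 1 or more reads was reached by 140 of the 278 loci (52 upstream and 88 downstream). Of these, 119 had a fitted log2 fold change below 0, and the median was -0.76, with -0.75 upstream and -0.76 downstream. Of the tested loci, 2 had no read in any mutant library. Set against a floor of 3 reads, both stayed below the median of -0.76, which therefore could not change. Over all 464695 loci tested in the genome, 48.8% were below 0 and the median was 0.02. In 19 of the 140 loci (13.6%), and in 0 in the other direction, the groups did not overlap with the mutants lower, against 2.84% of all loci tested (3.12% with the mutants higher). An unadjusted p under 0.05 was found for 22 of the 140, in each case with the mutants lower, and for 4.74% of all loci. Since a locus can reach the mean through the genotype in which it is high, the same was counted without the filter. Of the 240 loci with reads, 191 (79.6%) had a lower mean CPM in mutant testes, against 43.7% of the 1495720 loci with reads in the genome. In 21 (8.75%) every mutant library was below every wild-type library, against 1.19% of those loci. The genome shares were not matched for depth, and a locus with very few reads cannot separate the groups in this way. With more mutant than wild-type libraries, 30.2% of the genome's loci had reads in mutants only and 17.0% in wild-type only. For *Glis3* loci these were 7.08% and 15.4%. The 138 loci under a mean of 1 read summed to 14.8 ± 3.10 CPM (SD, n = 3) in wild-type and 7.11 ± 1.57 CPM (SD, n = 4) in mutant testes. The members share the transcript they lie in and are not independent measurements of the genotype.

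**Figure D4:**
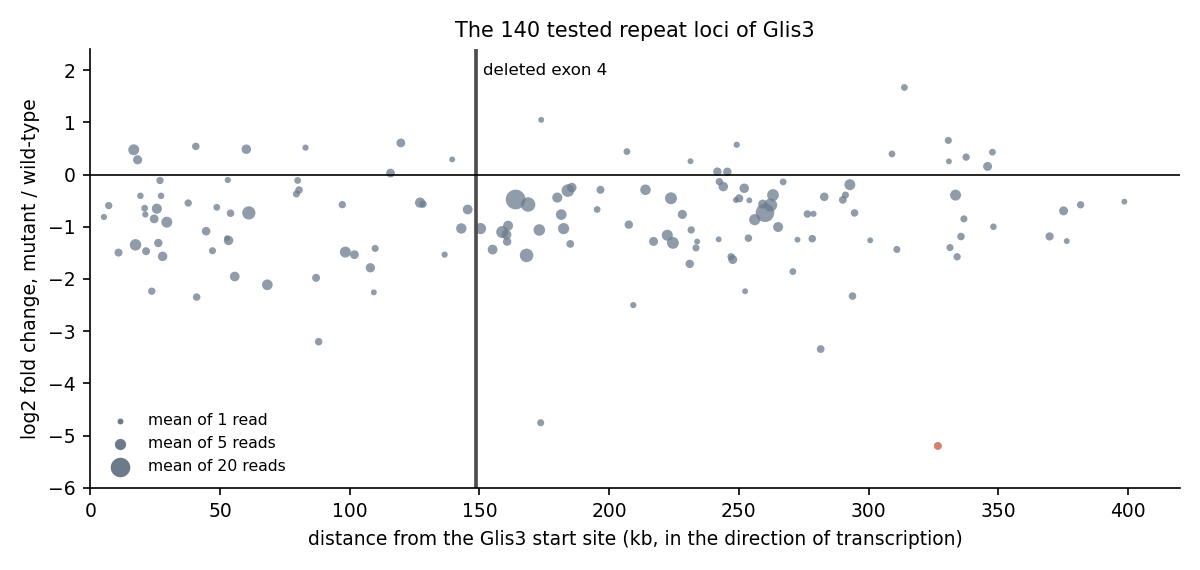
Log2 fold change (mutant over wild-type, edgeR) of the 140 tested *Glis3* repeat loci against distance from the start site in kb, with point area growing with the mean number of reads. The grey line marks the deleted exon, and the red point is the B4A element that passed an adjusted p of 0.1. Most points lie below 0 on both sides of the exon, 44 of 52 upstream and 75 of 88 downstream.

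One locus passed the adjusted p of 0.1 used for single loci, and it lies downstream of the exon. The locus is a B4A element, a SINE, in intron 6 (chr19:28353273-28353387, plus strand, 327 kb from the start site). It had 8, 5 and 2 reads in wild-type replicates 1 to 3 and 0 in all 4 mutant libraries (adjusted p = 0.0832). Its pooled wild-type level (15 reads) was 5.48 times a floor of 3 reads over the mutant group. This figure carries no error for the wild-type reads, so it is not a lower bound on the difference. The other of the 2 loci without mutant reads, named here after its values were seen, is a B2_Mm1t element in intron 4 with 6, 2 and 3 wild-type reads, which did not pass (adjusted p = 0.428). Over the genome 276 loci (0.0594% of those tested) were called lower and 99 (0.0213%) higher. The B4A element reached the mean of 1 read through its wild-type reads alone, and its call was lost without this filter (adjusted p = 0.305). It was also lost without any one of the libraries other than wild-type replicate 3 (adjusted p from 0.197 to 0.814), and DESeq2 called 0 *Glis3* loci.

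The 5 upstream loci of highest mean CPM all lie in intron 2. An L1MC4 element (LINE, chr19:28618759-28619237) had 13, 11 and 8 reads in wild-type and 7, 7, 3 and 4 in mutant libraries. An MLT2B4 element (LTR, chr19:28662537-28662843) had 9, 8 and 9 against 5, 0, 3 and 3 reads. The ORR1F element printed above had 13, 5 and 6 against 2, 1, 2 and 4 reads, which may include reads of the RNA whose exon holds it. In CPM the groups did not overlap for MLT2B4 and ORR1F and overlapped for L1MC4, where mutant replicates 1 and 2 lay just above wild-type replicate 3. An L2 element (LINE, chr19:28650435-28650828) had 10, 6 and 5 against 6, 1, 2 and 3 reads, with overlap. A B4A element (SINE, chr19:28663224-28663522) had 6, 5 and 2 against 5, 1, 6 and 8 reads, and was the exception among these 5, at a log2 fold change of 0.47 (standard error 0.58). The log2 fold changes of the other 4 were between -1.48 (ORR1F) and -0.73 (L1MC4), and none passed the test.

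The 5 downstream loci of highest mean CPM all lie in intron 4. The locus with the most reads of the gene is an L2 element (chr19:28515943-28516309), 14564 bases below the exon, with 40, 21 and 20 reads in wild-type and 19, 18, 15 and 11 in mutant libraries. Next is an L1MD2 element (LINE, chr19:28419255-28420730), the longest member, with 28, 26 and 20 against 16, 20, 9 and 4 reads. In CPM the groups overlapped at both. An MLT1C element (LTR, chr19:28511072-28511568) had 13, 13 and 12 against 9, 9, 8 and 2 reads, with no overlap. A MIRc element (SINE, chr19:28511860-28511979) had 21, 14 and 6 against 6, 4, 4 and 1 reads and overlapped only between wild-type replicate 3 and mutant replicate 1. A second L1MD2 element (chr19:28417378-28418248) had 10, 10 and 10 against 8, 1, 4 and 9 reads, with overlap. The log2 fold changes were between -1.55 (MIRc, adjusted p = 0.439) and -0.48 (L2), and none passed the test, although without wild-type replicate 3 MIRc passed (adjusted p = 0.0833). The 10 loci of highest mean CPM in the gene, on either side, held 21.4% of the reads. Without them, the sums were 114 ± 30.1 CPM (SD, n = 3) in wild-type and 62.0 ± 9.20 CPM (SD, n = 4) in mutant testes, a ratio of 0.546.

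Within 3.5 kb of the deleted exon lie 2 loci, both with reads in the mutants. An RMER17C element (LTR, chr19:28529437-28529897), whose near end is 976 bases below the exon, had 11, 7 and 5 reads in wild-type and 3, 2, 6 and 1 in mutant libraries. A PB1D10 element (SINE, chr19:28534567-28534683), 2581 bases above the exon, had 9, 2 and 4 against 2, 5, 2 and 1 reads. The groups overlapped at both loci. The ends of the deletion are not given in the sources used here, and with the 1114 bases of exon 4 inside it, at most 2386 bases remain for the introns. PB1D10 is thus out of reach. RMER17C is within reach by distance, but it had reads in every mutant library and so was not seen to be absent. Whether a part of it is deleted cannot be told from these counts. One member overlaps an exon of another *Glis3* transcript, *Glis3*-204, which is not coding. It is an MTA_Mm element (LTR, chr19:28325815-28326209) with 1, 2 and 0 against 0, 0, 2 and 0 reads, too few to test.

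Outside *Glis3*, none of the 4 flanking stretches and genes examined was lower in every mutant library than in any wild-type library. *Rfx3*, the nearest protein-coding gene on one side, encodes a transcription factor of ciliated cells and was well covered. Its 230 loci had 284, 295 and 276 CPM in wild-type replicates 1 to 3 and 282, 301, 247 and 253 CPM in mutant replicates 1 to 4, with overlap and a difference of -0.07 on the log2 scale (standard error 0.09, adjusted p = 0.802). *Slc1a1*, a glutamate transporter gene on the other side, had only 5, 4 and 3 reads against 7, 4, 8 and 9 and was not tested. In CPM these few reads were higher in every mutant library. In the stretch between *Glis3* and *Rfx3*, 276 loci had 23, 17 and 31 reads in wild-type and 25, 15, 21 and 24 in mutant libraries, and the 218 loci between *Glis3* and *Slc1a1* had 25, 17 and 25 against 26, 15, 25 and 33. Per kb of genome, these stretches had 0.0217 and 0.0325 CPM in wild-type testes, against 0.343 CPM within *Glis3*. The read level thus dropped at the borders of the gene in wild-type testes.

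The gene was also measured over its annotated transcript in FPKM (fragments divided by transcript length and by depth). Since no step selected poly-A tails, exon reads of unspliced RNA count toward FPKM too, so it is not a measure of spliced RNA alone. *Glis3* had 7.63 and 6.89 FPKM in wild-type replicates 1 and 2. Wild-type replicate 3 had 2.91 FPKM. The values were 3.86, 3.26, 2.90 and 2.66 FPKM in mutant replicates 1 to 4. In FPKM the groups overlapped through wild-type replicate 3, while in repeat reads they did not. FPKM is set over the annotated transcript, which holds the 1114 bases of exon 4 that the mutants lack, so the deletion itself can lower the mutant FPKM and raise a ratio to it, and the size of this effect was not measured. The ratio of repeat CPM to FPKM was 23.1, 21.2 and 36.8 in wild-type and 22.4, 24.7, 31.7 and 23.6 in mutant libraries. It was highest in wild-type replicate 3, and its means of 27.0 ± 8.54 (SD, n = 3) and 25.6 ± 4.18 (SD, n = 4) differed by less than the spread within either genotype. Germ cell marker sums were 1053, 855 and 623 FPKM in wild-type and 443, 450, 547 and 479 FPKM in mutant libraries, and wild-type replicate 3 was again the wild-type library nearest to the mutants. For *Ddx4*, an RNA helicase of germ cells, FPKM was 102, 94.7 and 53.1 against 39.8, 33.6, 42.2 and 34.9, without overlap. *Dazl* and *Sall4* did not overlap either. At *Pou5f1* (54.1 FPKM), *Dnd1* (53.0), *Mael* (18.8) and *Tdrd1* (2.28), wild-type replicate 3 lay within the mutant range. At *Dppa5a*, wild-type replicate 2 did. Of the 8 germ cell markers, 3 were lower in every mutant library than in any wild-type library and 0 were higher, where 7.92% of the 12783 genes averaging 1 FPKM or more were lower in this way. Of the 4 fetal Leydig cell markers, 2 were higher in every mutant library, against 7.57% of the same genes.

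**Figure D5:**
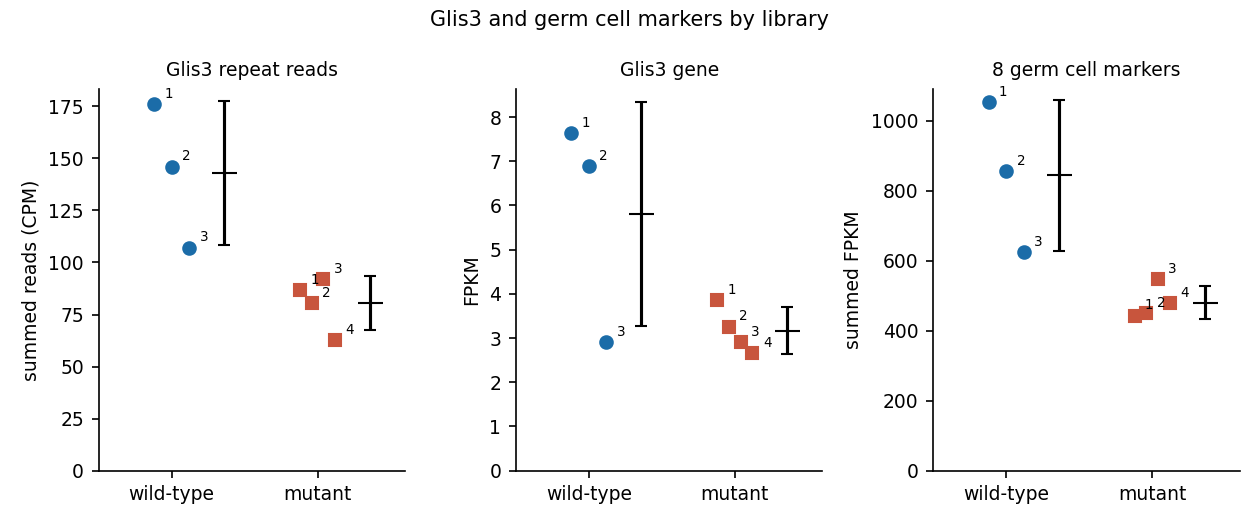
Repeat reads within *Glis3* (CPM), *Glis3* FPKM and the summed FPKM of 8 germ cell markers in the same libraries. Points are libraries numbered by replicate (wild-type blue circles, mutant red squares), and bars give the mean and SD. Wild-type replicate 3 is the lowest wild-type library in each panel, and at 2.91 FPKM it lies within the mutant range for the gene.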

How the data were processed

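RNA-Seq libraries of whole E14.5 testes (n = 3 wild-type, n = 4 mutant) were used. Replicates were separate embryos, and no pair of libraries agreed within counting noise. The authors aligned quality-filtered reads to mm10 with TopHat2 2.0.12 (unstranded) and deposited raw counts of uniquely mapped reads per RepeatMasker locus (HTSeq, strand setting not given in the sources used here) and FPKM per RefSeq gene (Cuffnorm). The headers of both tables lack 1 tab, and columns were read by position. All columns of samples were used.

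Counts were tested two-sided by quasi-likelihood in edgeR 4.0.16 (R 4.3.3, TMM normalization) over all loci averaging 1 read or more (adjusted p under 0.1, the filter and threshold of the study), over sums per gene (mean of at least 10) and per intron (mean of at least 5), and for the downstream to upstream ratio (at least 10 on each side, library as a block), with Benjamini-Hochberg adjustment over all features and a threshold of 0.05 for sums. Sums used the effective library sizes of the loci. Fitted log2 fold changes include a small prior count. Genes were the RefSeq spans of the FPKM table, and introns were those of the longest coding transcript in GENCODE M21, whose GRCm38 gene starts equal the deposited RefSeq ones at 8793 of 24739 genes and are off by 1 base at 332. Loci were placed with bedtools 2.31.1. DESeq2 1.42.0, limma 3.58.1, other normalizations, filters and sets of loci, a replicate block and leaving out each library were alternatives. Each fit was also run on simulated counts with known changes. Named loci were those called, the 5 highest in mean CPM on each side of the exon, those within 3.5 kb of it and those in other *Glis3* exons. The members, marker lists (germ, Sertoli, fetal Leydig, mesonephros, endothelial, interstitial and blood cells) and tests were chosen with earlier results of these data known. Sequences of other loci need the mm10 genome and are not used here. One mesonephros marker is not reported here, so that list is given by single genes and without a sum.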

Additional observations from a re-analysis of the deposited data

Results flagged for a closer look

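In 4 of the 52 sets of mutant values checked, 1 library stood far from the other 3. Chance alone flags about 1 in 20 such sets of continuous values, and the cause was not tested. Mutant replicate 4 was far below the other mutants in the summed LINE loci of *Glis3*, at 25.1 CPM. It was also far below them at the MLT1C element in intron 4, at 0.534 CPM (2 reads). Mutant replicate 1 was above the other mutants in the window from 50 to 100 kb from the start site, at 10.03 CPM. Mutant replicate 3 had the only mutant reads at the MTA_Mm element, at 0.587 CPM (2 reads). With the other mutants at 0, any reads in 1 library would have set this element apart.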

How the results depend on the processing

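The log2 fold change of the *Glis3* gene sum was below 0 under all 15 alternatives. It was called with DESeq2 (-0.86), without a filter on sums (-0.83) and with loci outside exons alone (-0.83). Leaving out 1 library gave values from -1.005 to -0.65, with a call only without wild-type replicate 3, and the adjusted p over all alternatives was between 0.000349 and 0.358. The number of *Glis3* introns called, 2, became 1 with DESeq2 and 0 with only loci of a mean of at least 1 read, and was between 0 and 2 without 1 library. The number of single loci called lower, 1, became 0 with DESeq2, without a filter, with a mean of at least 10 reads and at a threshold of 0.05, and was between 0 and 2 without 1 library. No *Glis3* locus was called higher under any of the 14 alternatives run. The downstream to upstream difference was not called under any of its 13 alternatives and stayed between 0.02 and 0.17. Over the genome, loci called lower and higher went from 276 and 99 to 11 and 4 with DESeq2, 16 and 0 with a mean of at least 10 reads, and 136 and 69 with the replicate block, and introns went from 13 and 3 to 5 and 0 with DESeq2, to 4 and 1 with loci of a mean of at least 1 read and to 107 and 79 without a filter. The replicate numbers of the labels did not pair the samples, with correlations of deviations of 0.107, -0.122 and 0.124 for numbers 1 to 3, and mutant replicate 4 has no partner. With the numbers as a replicate block, 0 single loci and 0 introns of *Glis3* were called, the gene sum was -0.71 and the downstream to upstream difference 0.17. Depth limits the single loci, of which 138 of 278 had a mean of under 1 read per library, and the calls of introns, of the single locus and of the gene sum changed when single libraries were left out.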
